A study of Homo sapiens with 19 samples.

Results

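The Polycomb and trithorax group genes encode the protein complexes that write and erase repressive and activating marks on histones. The 41 genes described here were chosen by name for their place in these complexes, with earlier results of these data known. They comprise 10 genes of Polycomb repressive complex 2 (PRC2), 17 of Polycomb repressive complex 1 (PRC1), 13 of the KMT2 methyltransferases and the KDM demethylases, and ASXL1 of the PR-DUB deubiquitinase. A probe was matched to 39 of them, out of 20503 genes with a probe on the array, and each gene was represented by its brightest probe. No probe was matched to EED or SETD1B through the accessions used here.

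KhES-3 is a line of human embryonic stem cells (hESCs), which the labels describe as grown on irradiated mouse fibroblasts with basic FGF and the methods as grown without feeders. All 19 samples received the same treatment, the BA induction toward brown adipocytes, in which the cells were floated in a serum-free medium with BMP4, IL-6, VEGFA, IGF-II, KITLG and FLT3LG. Total RNA was taken at 3 h, then each 2 h from 4 to 16 h, each 4 h from 20 to 36 h and each 6 h from 42 to 72 h, and every sample was hybridized to a one-colour Agilent array. There were no replicates and no uninduced array, so the only error at hand was how far the 19 arrays lay from a line in hours. RNA came from whole cultures, in which fewer cells of a type and less RNA per cell cannot be told apart.

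In general, PRC2 places methyl groups on H3K27 through its catalytic subunit EZH2 or EZH1, and PRC1 places ubiquitin on histone H2A through RING1 or RNF2. The KMT2 complexes methylate H3K4, a mark of active promoters and enhancers, while the KDM6 enzymes remove the PRC2 mark and the KDM5 enzymes remove H3K4 methylation. In hESCs, the repressive marks and the activating marks lie together on the promoters of many developmental regulators.

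The scanner output gave 3 scan times, and arrays that shared a scan time were taken here as a slide, without a slide number being read. The 3 slides so defined held the 6 arrays from 3 to 12 h, the 8 arrays from 14 to 42 h and the 5 arrays from 48 to 72 h. Later times thus lay on later slides, and the last of them was also scanned on another day. Between 49.5% (14 h) and 64.7% (54 h) of the probes were well above background. All signals below are linear intensities at a common 75th percentile of 871, and all changes are on the log2 scale. Over all tested probes, the log2 signal changed from 3, 4 and 6 h to 60, 66 and 72 h by a median of 0.13 under this scaling, of -0.24 under the array median and of -0.52 under the spike-in RNA. All 9 pluripotent cell markers were well above background on every array, and 6 of them fell, beside 29.8% of all genes tested. SOX2, NANOG and DPPA4 did not pass, and NANOG went from 30663 at 3, 4 and 6 h to 37373 at 60, 66 and 72 h. With the slide as a block only DNMT3B of the 9 fell. The summed signal of the 9 lay between 833359 and 839894 at 3, 4 and 6 h and between 599158 and 624016 at 60, 66 and 72 h. Of the markers of other cells, GATA1, CD34 and HBB for blood, FAP for fibroblasts, and ADIPOQ and FABP4 for adipocytes were well above background on no array. PTPRC and SPI1 of the blood list, COL1A1, COL1A2 and THY1 of the fibroblast list, and CDH5, KDR, TEK and VWF of the endothelial list were so on all 19 arrays, and RUNX1 on 18. COL3A1 and LUM of the fibroblast list and PECAM1 of the endothelial list were so on 1 array each, and POSTN of the fibroblast list on 2. From the earliest to the latest window PTPRC rose from 69.4 to 148, COL1A2 from 4717 to 6083 and KDR from 2364 to 5969. CDH5 rose from 104 to 157 and VWF from 98.2 to 191. RUNX1 fell from 228 to 49.3 and TEK from 1016 to 219.6, and SPI1 did not pass. With the slide as a block only the falls of RUNX1 and TEK passed among these genes. PDGFRB of the fibroblast list fell by 0.0146 per hour (adjusted p = 0.00071, limma), and COL1A1, THY1 and DCN did not pass. Of the adipocyte list, PPARG rose by 0.0244 per hour (adjusted p = 7.86e-05, limma), and PRDM16, UCP1 and CIDEA did not pass. PPARG was well above background on 8 arrays, none of them at 3, 4 or 6 h. Neither the fall of PDGFRB nor the rise of PPARG passed in the block fit. The summed signal went from between 377 and 434 to between 311 and 394 for 6 blood markers, from between 39379 and 42601 to between 29956 and 47194 for 9 fibroblast markers, and from between 140.1 and 166 to between 141 and 153 for 6 adipocyte markers. That of 5 endothelial markers went from between 3205 and 4149 to between 5547 and 8333. Such sums follow mostly the brightest probes, and KDR alone had 7742 at 60 h. They do not describe each gene of a list, as TEK fell while the endothelial sum rose. The part of cells of these types in the results was not tested.

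Of the 39 genes, 34 were well above background on all 19 arrays. PCGF5 and KDM5A were so on 3 arrays each and were not tested, which left 37 genes. In the slope of log2 signal on hours, 4 of the 37 genes rose and 16 fell (limma, adjusted p under 0.05 over all probes), while 24.6% of the 16694 genes tested on the array rose and 29.8% fell. The remaining 17 did not pass the test. The median slope of the 37 genes was -0.0034 per hour, and that of all genes was -0.0002 per hour. Falling genes were a larger share of the 37, and rising genes a smaller share, than of the array as a whole, and this was not tested. With the mean of all probes of a gene, 11 of the 37 fell, beside 28.5% of all genes. From 3 to 54 h alone, 11 fell too, beside 27.5%. By group, 2 of 9 PRC2 genes rose and 5 fell, 0 of 16 PRC1 genes rose and 5 fell, and 2 of 11 KMT2 and KDM genes rose and 5 fell. The median slopes of the groups were -0.0049, -0.0031 and -0.0010 per hour. The differences between the groups were not tested.

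The calls depended on the slide. With the slide as a block, 0 of the 37 genes rose and 2 fell (PHF19 and ASXL1), while 4.12% of all genes rose and 5.97% fell. At an unadjusted p under 0.05 in that fit, 3 genes rose (JARID2, CBX7 and KDM2B) and 5 fell. Of the 20 called genes, 9 had the sign of their slope within each of the 3 slides, namely EZH1, EZH2, RBBP7, PHF1, PHF19, RNF2, KMT2C, ASXL1 and KDM6A. In 19 of the 20, the signals at 60, 66 and 72 h did not overlap with those at 3, 4 and 6 h, with KDM6A as the exception. The genes had been called by their slope over these same arrays, which favours both counts. Neither count was taken over all genes, so neither sets the members apart from the array.

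**Figure D1:**
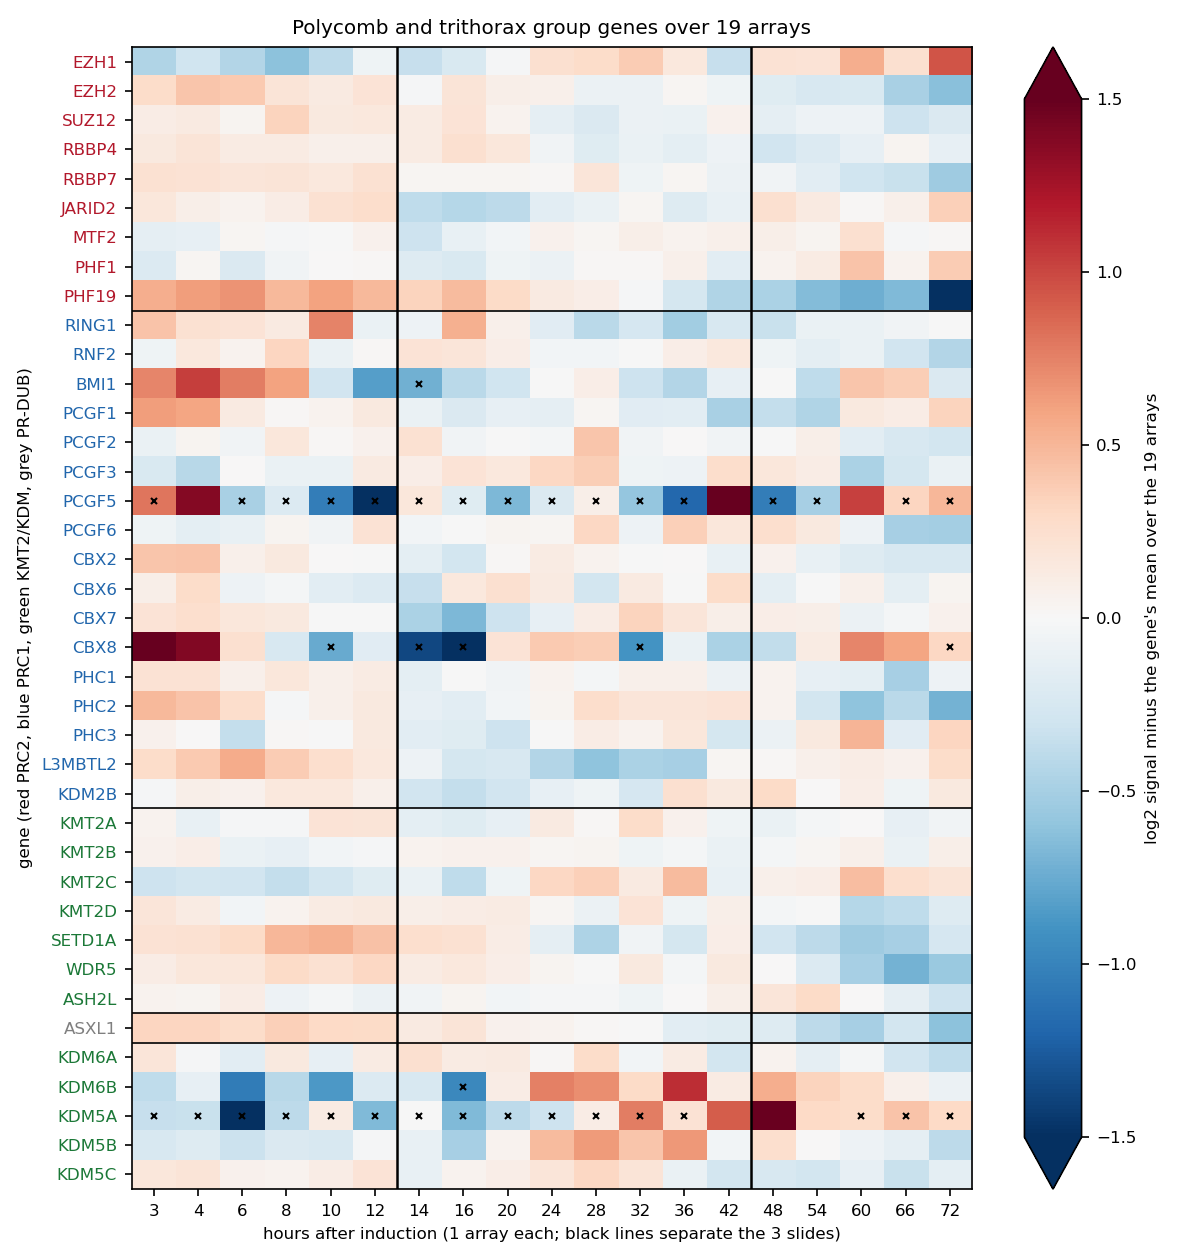
Log2 signal of 39 Polycomb and trithorax group genes (rows) on 19 arrays in order of time (columns, hours after induction), each minus the mean of the gene, with crosses where the probe was not well above background and black vertical lines between the slides. PHF19, EZH2, ASXL1, SETD1A and WDR5 go from red to blue, EZH1 goes from blue to red, and BMI1 and CBX8 are reddest at 3 and 4 h.

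The heat map of all 39 genes by time shows that the PRC2 genes moved in both directions. Within PRC2 the steepest fall of the 37 genes, that of PHF19, stood beside the steepest rise, that of EZH1.

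EZH2 is the PRC2 methyltransferase of dividing and embryonic cells. The signals of EZH2 were 4367, 4815, 4738, 4123, 3946 and 4135 on the 6 arrays from 3 to 12 h. They were 3561, 4121, 3826, 3803, 3388, 3373, 3681 and 3456 on the 8 arrays from 14 to 42 h and 3172, 3048, 3079, 2568 and 2329 on the 5 arrays from 48 to 72 h. The signal declined in every slide and was lowest at 72 h, and its 3 latest values, of which the highest was 3079, lay below its 3 earliest, of which the lowest was 4367. The slope was -0.0116 ± 0.0013 (SE) per hour, with an adjusted p of 5.35e-07 in limma, and the log2 change between these windows was -0.81. The slopes within the slides were -0.0238, -0.0057 and -0.0190 per hour, and with the slide as a block the adjusted p was 0.0558.

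EZH1 is its paralog, a weaker methyltransferase found also in resting cells. In order of time, EZH1 had signals of 581, 643, 584, 519, 603 and 757 up to 12 h and of 624, 676, 782, 932, 958, 1031, 883 and 626 from 14 to 42 h. From 48 h onward the signals were 923, 910.1, 1152, 938 and 1522. The minimum was at 8 h and the maximum at 72 h, with a plateau from 24 to 32 h and a return to 626 at 42 h. The log2 signal rose by 0.0148 ± 0.0025 (SE) per hour (adjusted p = 8.28e-05, limma), and the log2 change from the earliest to the latest window was 0.97. EZH1 was still called when the array median set the scaling, and under the spike-in RNA its slope was 0.0064 per hour and did not pass. Signals of different probes are not comparable as levels, but the change of their ratio is, and the scaling cancels in it. The log2 ratio of EZH2 to EZH1 fell by 0.0265 per hour (adjusted p = 4.51e-07), and its mean changed by -1.78 from 3, 4 and 6 h to 60, 66 and 72 h. With the slide as a block its slope was -0.0250 per hour, with an adjusted p of 0.0647.

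**Figure D2:**
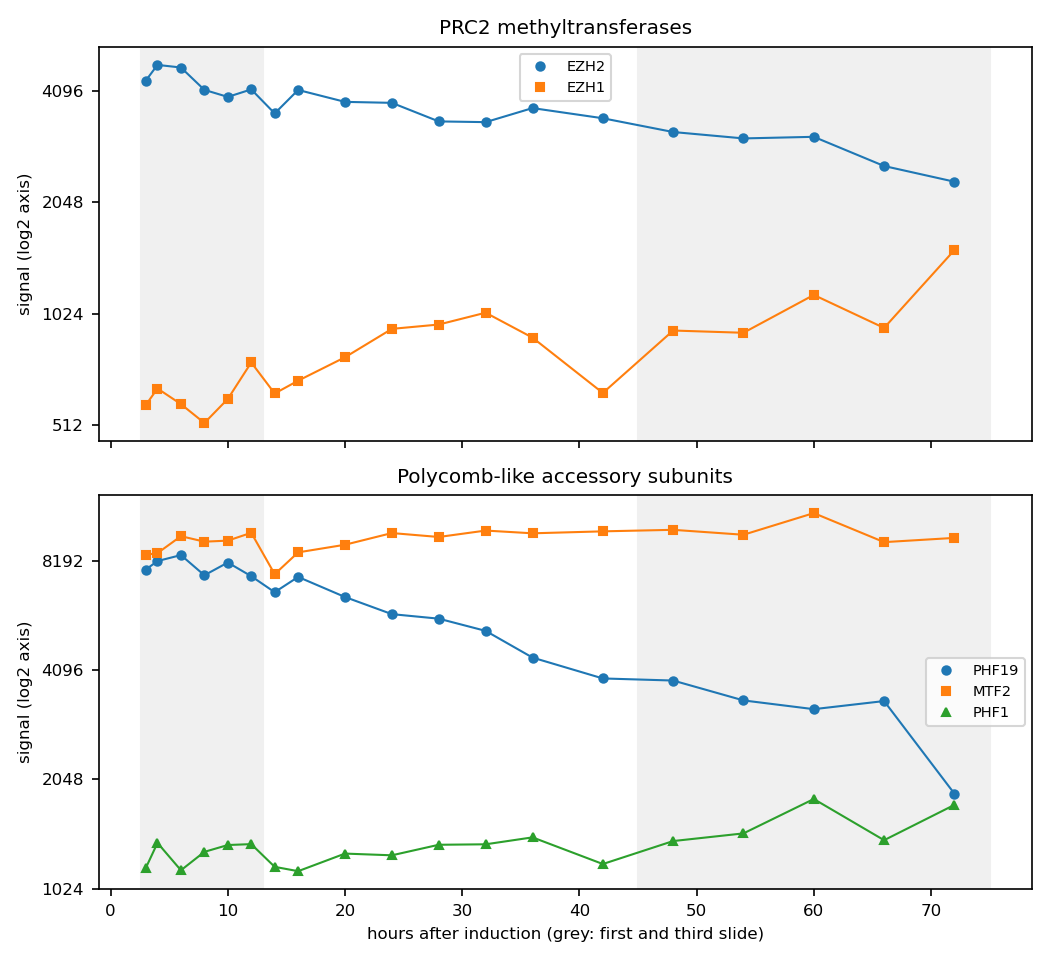
Signal (log2 axis, at a common 75th percentile of 871) against hours after induction for the PRC2 methyltransferases (upper) and the Polycomb-like subunits (lower), with 1 point per array and the first and the last slides in grey. EZH2 goes from 4367 at 3 h to 2329 at 72 h and EZH1 from 581 to 1522, and PHF19 stays below its value at 3 h from 12 h onward while MTF2 stays between 7530 and 11093.

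PHF19 is a Polycomb-like accessory subunit (also PCL3) that helps bring PRC2 to chromatin. Up to 12 h the arrays gave PHF19 signals of 7753, 8184, 8499, 7478, 8107 and 7434. The second slide gave 6716, 7399, 6514, 5844, 5679, 5255, 4437 and 3887, and the last gave 3835, 3381, 3199, 3367 and 1872. The signals of the first slide lay within 7434 and 8499, after which they declined, with small rises at 16 and 66 h, to 1872. Its slope was -0.0267 ± 0.0016 (SE) per hour (adjusted p = 6.45e-10), the steepest of the 37 genes, and it was -0.0309 per hour with the slide as a block (adjusted p = 0.0015). A second probe for the gene fell by 0.0161 per hour. The other Polycomb-like subunits did not share this course. MTF2 (PCL2) lay between 7530 and 11093 with a median of 9533 and did not pass the test, at 0.0027 per hour. The log2 ratio of PHF19 to MTF2 fell by 0.0293 per hour (adjusted p = 6.64e-10), and this slope passed with the slide as a block too, at -0.0376 per hour with an adjusted p of 0.000658.

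PHF1 (PCL1), another Polycomb-like gene, went the other way. PHF1 signals ran 1168, 1369.6, 1151, 1294, 1351 and 1359 on the first slide. Those of 14 to 42 h were 1177, 1145, 1279.9, 1266, 1354, 1358, 1419 and 1198, and those of 48 to 72 h were 1386, 1455, 1809, 1393 and 1743. Its highest values were at 60 and 72 h, and no value at 54 h or before was above 1455. The log2 signal of PHF1 rose by 0.0058 ± 0.0015 (SE) per hour (adjusted p = 0.00375), but scaled to the spike-in RNA its slope was -0.0027 per hour. For PHF1 over MTF2, the log2 ratio had a slope of 0.0031 ± 0.0016 (SE) per hour, which did not pass (adjusted p = 0.103).

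RBBP7 and RBBP4 are histone-binding subunits that PRC2 shares with other chromatin complexes. The first slide gave RBBP7 signals of 14994, 14784, 14518, 14537, 14292 and 14926, and the second gave 13044, 13014, 12990.4, 12945, 14449, 12238, 12991 and 12052. The 5 arrays from 48 h onward gave 12296, 11433, 10412, 10116 and 8819.6. The decline was slow until 54 h, where the signal was 11433, and it went on to 8820 at 72 h. The slope was -0.0089 ± 0.0011 (SE) per hour (adjusted p = 3.67e-06), and those within the slides were -0.0024, -0.0030 and -0.0189 per hour. RBBP4 had a median of 18482 and a range from 14731 at 48 h to 21145 at 16 h. It fell by 0.0049 per hour (adjusted p = 0.00695) and its 3 other probes fell as well, although with normexp background correction and quantile normalization its brightest probe had a slope of 0.0001. SUZ12, the subunit that holds the core together, ranged from 4049 at 66 h to 6307 at 8 h with a median of 5140, and it fell by 0.0058 per hour (adjusted p = 0.00164). With normexp and quantile normalization the slope of SUZ12 was -0.0020 per hour and did not pass (adjusted p = 0.228). JARID2, an accessory subunit that binds DNA and RNA, was not called. Its signal went from 20243 at 12 h to 13021 at 14 h and back to 19981 at 48 h, so that the low values all lay on the second slide. The step of -0.64 from 12 to 14 h, across the first slide boundary, compares with a median step of -0.095 over all genes, of which 10% had a step below -0.42.

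**Figure D3:**
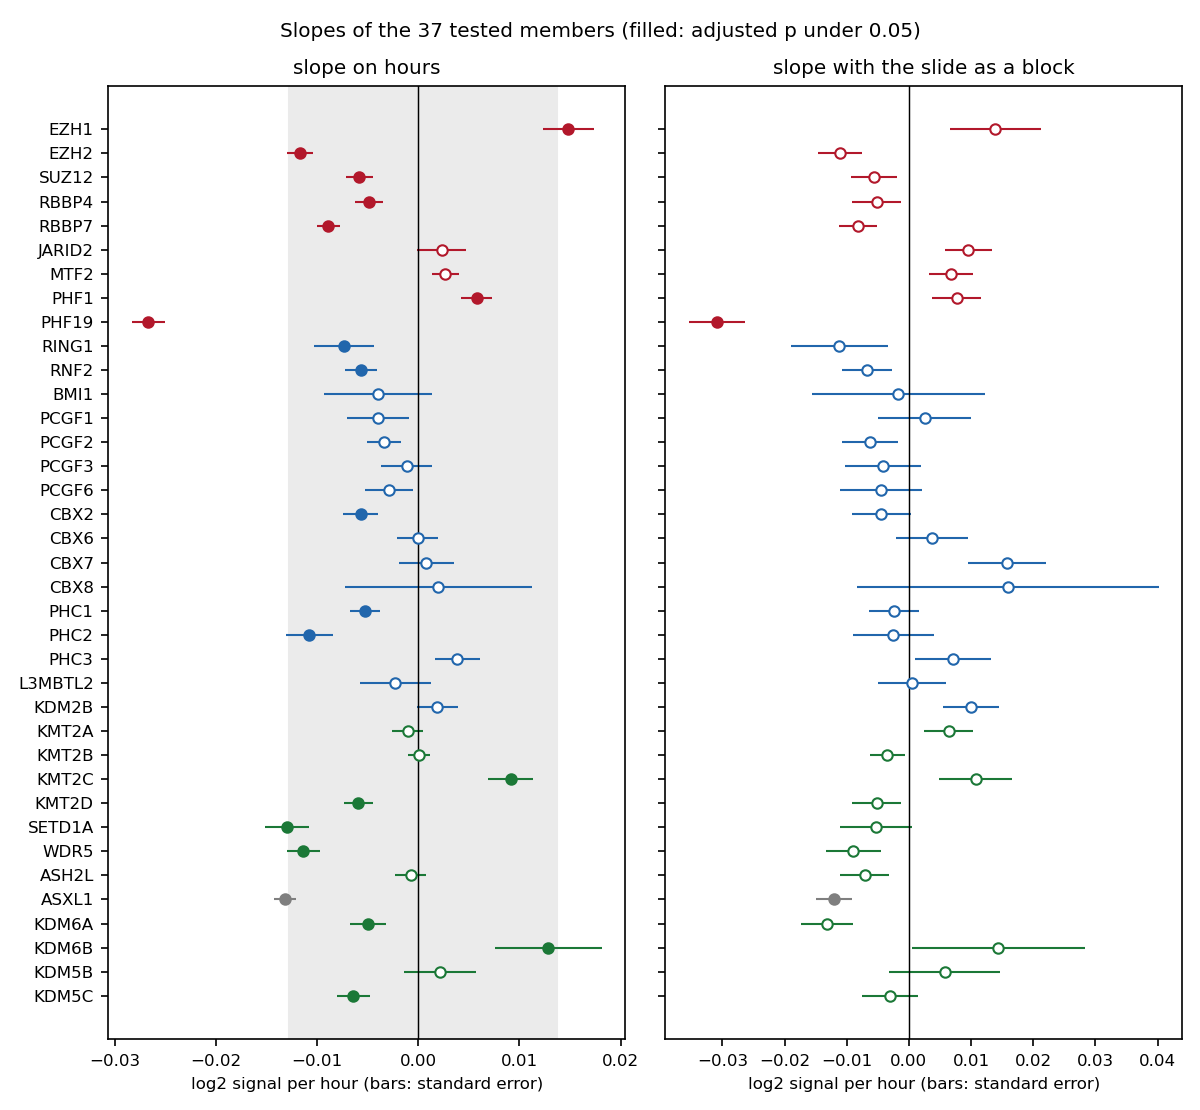
Slope of log2 signal per hour with its standard error for the 37 tested genes (red PRC2, blue PRC1, green KMT2 and KDM, grey ASXL1), from the fit on hours (left) and with the slide as a block (right), filled where the adjusted p was under 0.05, with the slopes of all genes shaded on the left except for the lowest and the highest 10 percent. On the left 20 points are filled and PHF19 and EZH1 lie outermost, and on the right PHF19 and ASXL1 are filled.

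The plot of slopes with and without the block shows that 32 of the 37 slopes kept their sign with the block, while the standard error was larger for all 37. For EZH2, for example, the SE went from 0.0013 to 0.0035 per hour as the slope went from -0.0116 to -0.0111 per hour.

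Promoters of 5 of the 7 PRC2 genes that were called are shown, without those of SUZ12 and RBBP7, because all 5 called genes that fell held the letters CCAAT, the core of the CCAAT box bound by NF-Y, and neither of the 2 that rose did. The sequences come from RefSeq (GRCh38.p14), where a promoter window of 300 bases (250 before and 50 after the start) was at hand for 37 of the 41 genes. Below are the 200 bases before the start of EZH2 (chr7:148884292-148884491, minus strand), RBBP4 (chr1:32651008-32651207, plus strand), PHF19 (chr9:120868912-120869111, minus strand), EZH1 (chr17:42745041-42745240, minus strand) and PHF1 (chr6:33410814-33411013, plus strand), each 5′ to 3′ on the strand of the gene. Capitals mark CCAAT or its reverse complement ATTGG.
EZH2: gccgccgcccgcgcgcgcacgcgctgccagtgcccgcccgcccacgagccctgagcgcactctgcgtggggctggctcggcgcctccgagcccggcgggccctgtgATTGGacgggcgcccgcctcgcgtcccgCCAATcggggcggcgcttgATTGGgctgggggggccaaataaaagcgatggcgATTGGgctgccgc
RBBP4: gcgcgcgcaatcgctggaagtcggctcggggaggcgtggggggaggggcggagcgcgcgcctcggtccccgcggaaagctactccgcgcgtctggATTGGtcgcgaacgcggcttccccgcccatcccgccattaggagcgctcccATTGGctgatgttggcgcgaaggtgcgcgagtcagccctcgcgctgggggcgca
PHF19: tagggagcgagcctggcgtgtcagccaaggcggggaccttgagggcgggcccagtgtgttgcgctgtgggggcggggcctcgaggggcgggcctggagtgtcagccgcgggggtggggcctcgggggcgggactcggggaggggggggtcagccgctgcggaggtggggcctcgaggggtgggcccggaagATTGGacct
EZH1: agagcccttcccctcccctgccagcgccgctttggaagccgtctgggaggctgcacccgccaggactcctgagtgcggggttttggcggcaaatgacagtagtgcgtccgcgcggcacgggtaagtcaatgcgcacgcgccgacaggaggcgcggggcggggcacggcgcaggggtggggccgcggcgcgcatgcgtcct
PHF1: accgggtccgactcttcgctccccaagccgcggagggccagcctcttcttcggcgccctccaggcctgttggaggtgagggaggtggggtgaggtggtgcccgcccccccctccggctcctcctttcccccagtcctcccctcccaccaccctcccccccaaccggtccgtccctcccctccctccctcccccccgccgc

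EZH2 had 4 matches in its window, RBBP4 had 2, and SUZ12, RBBP7 and PHF19 had 1 each. CCAAT on either strand occurred in 35.7% of all 27305 promoter windows and in 36% of those of the genes tested, in 7 of 10 PRC2 windows, 6 of 15 PRC1 windows and 2 of 11 KMT2 and KDM windows. In PRC2 it was also held by JARID2, which was not called, and by EED, which had no probe, while MTF2, not called either, held none. Over all members, 8 of the 15 falling genes with a window held it, and 5 of the 15 that were not called. Outside PRC2, 3 of 10 falling genes held it (PHC2, WDR5 and KDM6A), while RING1, RNF2, PHC1, KMT2D, SETD1A, ASXL1 and KDM5C fell and held none. L3MBTL2, whose slope did not pass, also had 4 matches. The words TTTCCCGC, TTTGGCGC, TTTCGCGC and TTTGCCGC of E2F sites, on either strand, were in 4 of 10 PRC2 windows (EZH1, EZH2, SUZ12 and MTF2) and in none of the other members. They were in 3.33% of all windows and in 4.95% of those of the genes tested. The word CCGGAAGT of ETS sites and the word AAGATGGC of YY1 sites were searched too. They were in 2 and 4 of the 37 member windows, and in 7.42% and 4.54% of those of the genes tested. The letters were compared after the slopes were known, and these matches describe the windows and were not tested.

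Of PRC1, 0 genes rose in limma, also at an unadjusted p under 0.05, and 5 of 16 fell. PHC2, a Polyhomeotic subunit through which PRC1 units join into larger assemblies, had the steepest slope. The signals of PHC2 were 1691, 1619, 1445, 1194, 1277 and 1338 on the 6 arrays from 3 to 12 h. They were 1106, 1082, 1174, 1241, 1452, 1367, 1374 and 1394 on the 8 arrays from 14 to 42 h and 1247, 1000.3, 791, 915 and 738 on the 5 arrays from 48 to 72 h. The signal went down over the first slide, rose again to 1452 at 28 h and fell after 48 h to its minimum at 72 h. The slope was -0.0107 ± 0.0024 (SE) per hour (adjusted p = 0.000868) and the log2 change from the earliest to the latest window was -0.96. Within the slides the slopes were -0.0450, 0.0144 and -0.0274 per hour, and a dimmer probe of PHC2 did not pass. PHC1, its paralog, fell by 0.0053 per hour (adjusted p = 0.00553) with a median of 21437, but its 3 dimmer probes did not pass, and with normexp and quantile normalization the slope was 0.0001 per hour. PHC3 did not pass, with values from 1882 at 6 h to 3426 at 60 h.

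RING1 is one of the pair of E3 ligases that place ubiquitin on H2A. In order of time, RING1 had signals of 1164, 1010.5, 993, 948, 1448 and 807 up to 12 h and of 816, 1252, 913, 769, 653, 724, 601 and 728 from 14 to 42 h. From 48 h onward the signals were 684, 802, 802, 830.3 and 857. Single arrays at 10 and 16 h stood high, and the lowest values were at 28 and 36 h, before the latest window. The slope of -0.0073 ± 0.0030 (SE) per hour had an adjusted p of 0.046. The call was lost on leaving out any of 12 of the 19 arrays, with slopes from -0.0093 to -0.0059 per hour over the 19 omissions. The other ligase, RNF2 (RING1B), ranged from 905 at 72 h to 1529 at 8 h with a median of 1216. It fell by 0.0057 per hour (adjusted p = 0.00493), and its second probe fell by 0.0105 per hour. For RNF2 over RING1, the log2 ratio had a slope of 0.0017 ± 0.0037 (SE) per hour and did not pass.

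The CBX proteins read the PRC2 mark and define the canonical PRC1 variants. Up to 12 h the arrays gave CBX2 signals of 21505, 21738, 17092, 17912, 16288 and 16053. The second slide gave 14638, 13315, 16312, 17631, 16722, 16119.9, 16231 and 14907, and the last gave 16856, 14950.2, 14171, 13630.2 and 13659. CBX2 was highest at 3 and 4 h and lowest at 16 h, and most of its decline was over by then. Its slope was -0.0057 ± 0.0017 (SE) per hour (adjusted p = 0.0102). With normexp and quantile normalization it was -0.0011 per hour and did not pass (adjusted p = 0.614). Its slopes were -0.0503 per hour in the first slide and 0.0039 per hour in the second. CBX7, the main CBX of undifferentiated pluripotent cells, dipped to 1520 at 16 h and returned to 3055 at 32 h. Its brightest probe had a slope of 0.0008 per hour and did not pass, whereas its other probe rose by 0.0177 per hour (adjusted p = 7.09e-05). The log2 ratio of CBX2 to CBX7 fell by 0.0065 per hour (adjusted p = 0.00875), and by 0.0203 per hour with the slide as a block (adjusted p = 0.00723), but with normexp and quantile normalization the ratio did not pass (-0.0043 per hour, adjusted p = 0.108). CBX6 lay between 3474 and 5337 and did not pass. CBX8 had 165, 112, 50.7 and 36.2 on the arrays of 3, 4, 6 and 8 h, and it went to 11.2 at 16 h, where it was not well above background. It was back at 70.9 at 60 h, and it was not called. It was well above background on 14 arrays.

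None of the 5 tested PCGF genes, whose products partner the RING proteins and set the PRC1 variant, was called. BMI1 (PCGF4) had 142, 175, 146 and 129 at 3, 4, 6 and 8 h and then 70.2 at 10 h and 48.1 at 12 h. From 14 h its signals lay between 51.6 and 114. PCGF1 went from 871 at 3 h to 621 at 6 h, was lowest at 42 h with 405, and was back at 716 at 72 h. PCGF6 was highest at 36 h with 1248 and lowest at 72 h with 687. PCGF2 (MEL18) lay between 173 and 281 and PCGF3 between 83.8 and 149.7 without a called slope. L3MBTL2 and KDM2B, which belong to variant PRC1 complexes, were not called either. L3MBTL2 was highest at 6 h (556) and lowest at 28 h (247), and KDM2B lay between 1117 and 1742.

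The slope was also tested for a difference between the slides, which hold consecutive spans of time. It differed for 8 of the 37 genes at an adjusted p under 0.05 (limma, hours by slide interaction), against 25.5% of all genes, so the share of the members was not above that of the array. They were 6 of the 16 PRC1 genes (BMI1, PCGF1, PCGF6, CBX2, CBX7 and PHC2), WDR5 and ASH2L of the KMT2 complexes, and 0 of the 9 PRC2 genes. Within the first slide the slopes of BMI1, PCGF1, CBX2 and PHC2 were -0.19, -0.0618, -0.0503 and -0.0450 per hour. The slope of PHC2 on the last slide, -0.0274 per hour, was negative too.

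**Figure D4:**
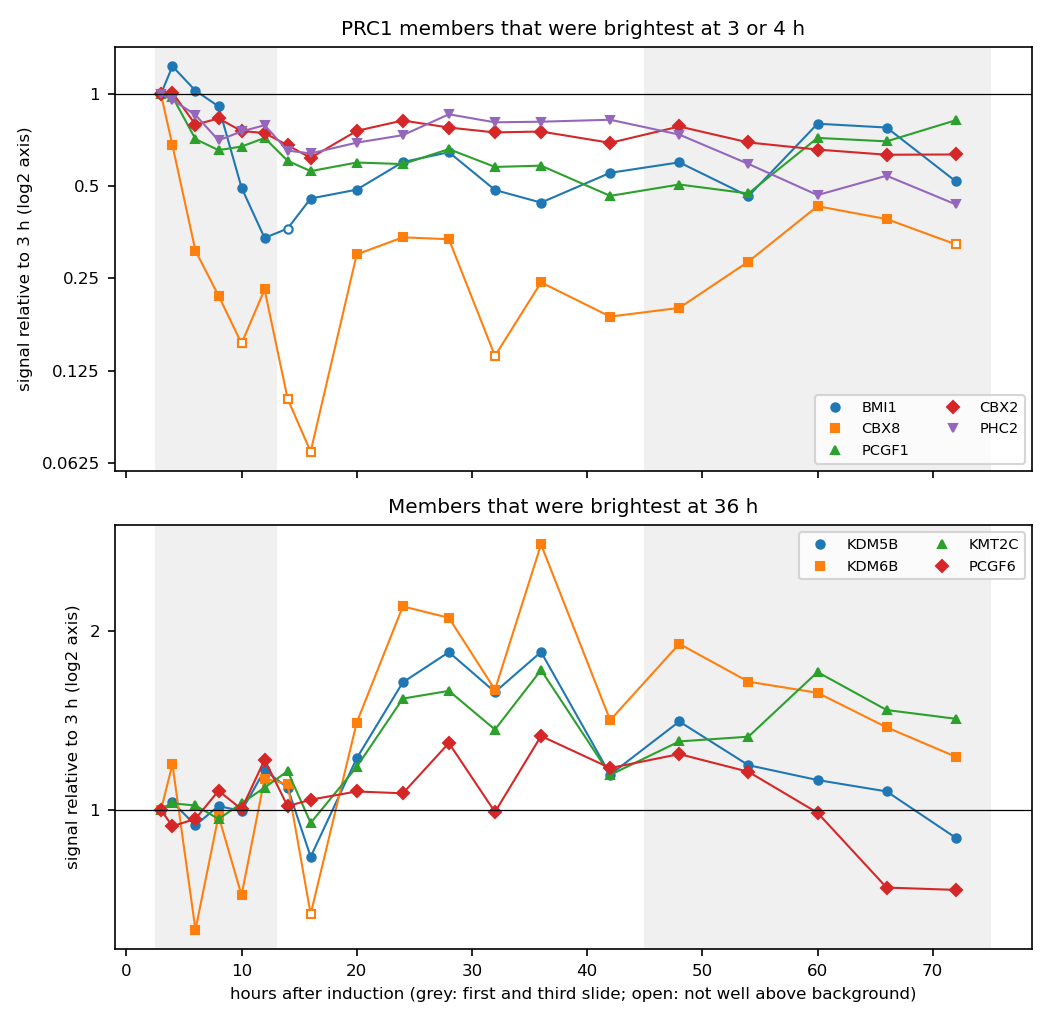
Signal relative to that at 3 h (log2 axis) against hours after induction for 5 PRC1 genes that were brightest at 3 or 4 h (upper) and for 4 genes that were brightest at 36 h (lower), with 1 point per array, open where not well above background, and the first and the last slides in grey. BMI1 and CBX8 drop below their values at 3 h by 8 h, and KDM6B, KDM5B and KMT2C are high from 24 to 36 h and lower at 42 h.

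Among the KMT2 and KDM genes the steepest falls were those of SETD1A and WDR5. SETD1A is the methyltransferase of a complex that places H3K4 trimethylation at promoters. SETD1A signals ran 7740.2, 7756, 8120.4, 9357, 9620.0 and 8979 on the first slide. Those of 14 to 42 h were 7889.8, 7758, 7173, 6060.3, 4807, 6411, 5557 and 7129, and those of 48 to 72 h were 5454, 5047, 4589, 4696 and 5579.7. It was highest at 8 and 10 h and lowest at 60 h, so the decline set in after a rise in the first slide. The slope was -0.0130 ± 0.0022 (SE) per hour (adjusted p = 6.89e-05), and the slopes within the slides were 0.0339, -0.0113 and -0.0006 per hour.

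WDR5 is a scaffold shared by all KMT2 complexes. The first slide gave WDR5 signals of 12036, 12539, 12539.7, 13550.5, 13007 and 13788, and the second gave 12090.5, 12430.5, 11911, 11487, 11079.9, 12298, 10880.1 and 12280.0. The 5 arrays from 48 h onward gave 11181, 9634, 7889.5, 6818 and 7589. Its signals lay between 10880.1 and 13788 up to 48 h and were 7890 or less from 60 h. The slope was -0.0113 ± 0.0017 (SE) per hour (adjusted p = 1.53e-05), with slopes of 0.0189, -0.0018 and -0.0269 per hour within the slides. ASH2L, another shared subunit, was highest at 54 h (8148) and lowest at 72 h (5388), with no called slope over the whole course.

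KMT2C and KMT2D are paralogs that monomethylate H3K4 at enhancers, and they moved apart. The signals of KMT2C were 2228, 2286, 2267, 2152, 2286 and 2429.7 on the 6 arrays from 3 to 12 h. They were 2590.1, 2119, 2633, 3431, 3536, 3043, 3833 and 2552 on the 8 arrays from 14 to 42 h and 2906, 2960.2, 3803, 3283 and 3173 on the 5 arrays from 48 to 72 h. KMT2C was near its starting value until 16 h and was high at 36 and 60 h. It rose by 0.0092 ± 0.0022 (SE) per hour (adjusted p = 0.00195), and its 2 other probes rose by 0.0109 and 0.0106 per hour. With the array median its slope was 0.0039 per hour and did not pass. KMT2D ranged from 1716 at 60 h to 2664 at 32 h, with a median of 2405, and fell by 0.0059 per hour (adjusted p = 0.00228). The log2 ratio of KMT2C to KMT2D rose by 0.0151 per hour (adjusted p = 0.000164) and was 1.02 higher in the latest window than in the earliest, but with the slide as a block the adjusted p was 0.222. KMT2A (MLL1) and KMT2B (MLL2), the promoter methyltransferases of the family, did not pass, at -0.0010 and 0.0001 per hour. KMT2B varied least of the 37 genes, between 1446 and 1681. A pair of dimmer KMT2A probes rose by 0.0103 and 0.0155 per hour, and KMT2B was called falling under the array median.

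KDM6B (JMJD3) and KDM6A (UTX) are the demethylases that remove the PRC2 mark. In order of time, KDM6B had signals of 76.6, 91.4, 48.1, 74.9, 55.1 and 86.5 up to 12 h and of 84.7, 51.2, 108, 169, 161, 122, 215 and 109 from 14 to 42 h. From 48 h onward the signals were 146, 126, 121, 106 and 94.2. KDM6B was dim, and 18 of its 19 values were well above background, with 16 h as the exception. The minimum was at 6 h and the maximum at 36 h. It rose by 0.0129 ± 0.0053 (SE) per hour with an adjusted p of 0.0465. The call was lost on leaving out any of 13 of the 19 arrays, with slopes from 0.0106 to 0.0170 per hour over the 19 omissions, and it was also lost under the array median, the spike-in RNA, the deposited table and normexp with quantile normalization. KDM6A lay between 1011 at 72 h and 1601 at 28 h with a median of 1330. It fell by 0.0050 per hour (adjusted p = 0.0231), a call lost without the 66 h or the 72 h array. A dimmer probe of KDM6A had a slope of 0.0041 per hour and did not pass. The call was also lost with the mean of all probes (-0.0004 per hour, adjusted p = 0.86 in limma) and on log2 hours (adjusted p = 0.126). For KDM6A over KDM6B, the log2 ratio fell by 0.0178 per hour (adjusted p = 0.00302), and with the slide as a block the adjusted p was 0.165.

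**Figure D5:**
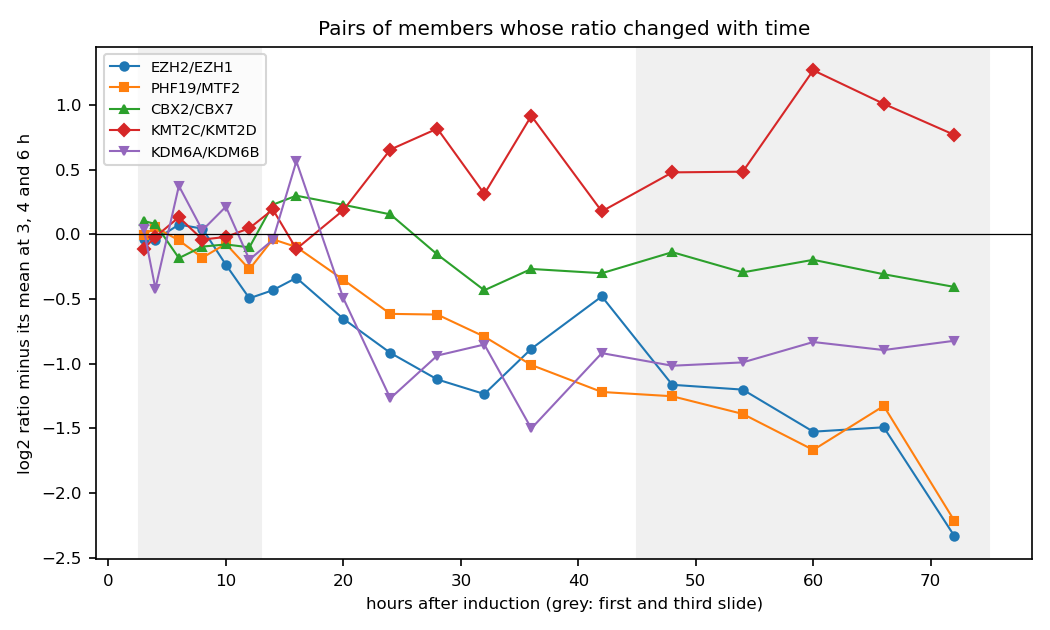
Log2 ratio of 5 pairs of related genes, minus its mean at 3, 4 and 6 h, against hours after induction, with 1 point per array and the first and the last slides in grey. The ratios of EZH2 to EZH1 and of PHF19 to MTF2 are lowest at 72 h, and that of KMT2C to KMT2D lies above 0 on each array from 20 h.

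The plot of pair ratios by time shows the 5 of 13 tested pairs whose log2 ratio had a slope that passed the test. Of these, the ratios of PHF19 to MTF2 and of CBX2 to CBX7 passed with the slide as a block as well.

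The KDM5 enzymes remove H3K4 methylation. Up to 12 h the arrays gave KDM5C signals of 2595, 2632, 2404, 2386, 2484 and 2651. The second slide gave 2137, 2379, 2469, 2605, 2858, 2635, 2143 and 1899, and the last gave 1949, 1898, 2109, 1819.7 and 2081. KDM5C had its maximum at 28 h, and from 36 h onward no value was above 2143, although the 14 h array was as low. It fell by 0.0064 ± 0.0016 (SE) per hour (adjusted p = 0.0027), but with normexp and quantile normalization the slope was -0.0034 per hour and did not pass (adjusted p = 0.128), while a dimmer probe had a slope of 0.0069 per hour and did not pass. KDM5B (JARID1B) was not called over the whole course and had the clearest hump, with 14423 on the earliest array and 12028 on that of 16 h, then 23660.1, 26602, 22789.5 and 26619.7 on those from 24 to 36 h, 16543 on the next and 12950 on the last. The signal of KDM5B was higher on each of the 4 arrays from 24 to 36 h than on any other. From 36 to 42 h, 7 of the 39 genes had a log2 step below the lowest 10 percent of all genes (-0.35), and the steps were -0.98 for KDM6B, -0.69 for KDM5B, -0.59 for KMT2C and -0.50 for EZH1. These arrays lay on the same slide, and the step rests on 1 array at 42 h.

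ASXL1, the partner of BAP1 in PR-DUB, which takes ubiquitin off H2A, fell evenly. Its signals ranged from 1716 at 8 h through a median of 1391 to 874 at 72 h, and its log2 signal scattered around the line with an SD of 0.073. The slope was -0.0131 ± 0.0011 (SE) per hour (adjusted p = 2.34e-08), and -0.0120 per hour with the slide as a block (adjusted p = 0.0173).

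Other genes of these complexes were counted by the same test, in which 24.6% of all genes rose and 29.8% fell. Of 4 other PRC2 genes, 3 rose and 0 fell, at an unadjusted p under 0.05 too, the steepest being LCORL (40.5 to 112) and AEBP2 (2381 to 4394) from the earliest to the latest window. Both encode accessory subunits. Of 15 other PRC1 genes, 4 rose and 4 fell, and the steepest falls were those of SCML1, from 38.3 to a signal not well above background, and of BCOR, a corepressor of a variant PRC1, from 1856 to 601. Of 9 genes of PR-DUB and other H2A deubiquitinases, 5 rose and 1 fell, the H2A deubiquitinase USP16, from 4114 to 1897. Of 14 other KMT2 complex and trithorax genes, 2 rose and 8 fell, among them HCFC1 (268 to 105) and PSIP1 (25920 to 16349). Of 19 genes of the SWI/SNF remodelers, the trithorax group complexes that slide nucleosomes, 1 rose and 15 fell, with a median slope of -0.0087 per hour beside -0.0002 for all genes. The SWI/SNF gene that rose was SMARCD3, from 899 to 1302, and the steepest fall was that of PHF10, from 1591 to 589. With the slide as a block, 1 of the other PRC2 genes rose, 0 of the other PRC1 and of the deubiquitinase genes were called, and 1 rose and 2 fell in each of the other KMT2 and SWI/SNF lists. In that fit 4.12% of all genes rose and 5.97% fell. With the spike-in RNA, 1 of the other PRC2 genes rose, the deubiquitinase list had 0 rising and 2 falling, the other PRC1 list 0 and 5, the other KMT2 list 0 and 9, and SWI/SNF 0 and 17. Under that scaling 3.59% of all genes rose and 44.5% fell. The differences of the lists from the array were not tested.

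Few developmental regulators known as Polycomb targets were called. Of the 34 genes, 5 were well above background on no array and 9 on every array, and 11 were too dim to test. The 9 include NKX2-5 (59385 to 101449) and EN2 (27079 to 47120), beside 16834 to 39129 for the pluripotent cell marker NANOG. Whether these 2 probes report their genes was not tested. Of the 23 genes tested 1 rose and 2 fell, beside 24.6% and 29.8% of all genes. With the slide as a block none was called, and the adjusted p were 0.152 for HAND1, 0.989 for CDX2 and 0.963 for PAX6. HAND1, a mesoderm and trophoblast regulator, rose from 48.0 to 236, with 114.6, 641 and 179 on the 60, 66 and 72 h arrays and a mean of 143 without the 66 h array. Its slope without that array passed as well (0.0367 per hour, adjusted p = 0.000302). CDX2, a trophoblast and hindgut regulator, fell from 102 to 37.8, with 27.4, 168 and 11.8 on the same arrays, and only the 66 h value was well above background. Without the 66 h array its late mean was 17.9 and its slope -0.0302 per hour (adjusted p = 0.000218), against -0.0187 (adjusted p = 0.047) with it, and leaving out any of 13 other arrays ended the call. On the last slide the 66 h array gave the highest value for 22 of the 34 target genes and for 1 of the 39 members. The 34 include the 11 that were too dim to test, and the share over all genes was not counted. PAX6 of the neural lineage went from 160 to a signal not well above background at 60, 66 and 72 h, a log2 change of -2.27 or lower, taken against the lowest signals well above background.

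Genes of proliferation moved in the same direction as EZH2. Of 14 such genes, 0 rose and 11 fell in limma (0 and 12 at an unadjusted p under 0.05, and 0 and 4 with the slide as a block), with a median slope of -0.0133 per hour, and the summed signal lay between 206055 and 219807 at 3, 4 and 6 h and between 107683 and 125853 at 60, 66 and 72 h. Of all genes tested, 24.6% rose and 29.8% fell, and 4.12% and 5.97% did so with the slide as a block. RRM2, a subunit of ribonucleotide reductase, went from 2052 to 454. The part of proliferation in the fall of EZH2, RBBP7 and the other members was not tested.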

How the data were processed

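The authors hybridized Cy3-labelled RNA of 19 samples of KhES-3 cells, 1 per time point, to one-colour Agilent arrays. The authors deposited the output of Agilent Feature Extraction 10.10.1.1 for each array, in which the processed intensity of a spot has its background subtracted without scaling between arrays. They also deposited flags, a score of 0 or 1 per spot, for spots well above background, saturated or outlying, and a table that holds the processed intensity times 1 factor per array (0.905 to 1.38), left blank where the spot was not well above background.

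Each array had 62976 spots, of which 61657 were not controls, for 50683 probes. Flagged outliers (0.632% of these spots, 232 to 814 per array) were left out, no spot was saturated, and the spots of a probe were averaged. Each array was scaled to its own 75th percentile (655 to 1003) on the log2 scale. Probes were named through their RefSeq accession in the GRCh38.p14 annotation (28174 probes, 20503 genes), and a gene was taken by its brightest probe, judged by the mean of the log2 signals. Precision is limited by the number of arrays, and cultures were not replicated, so p-values measure only the spread of the arrays about each line.

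A probe was tested if it was well above background on 5 or more arrays (32113 probes). Slopes on hours came from limma 3.58.1 (lmFit, eBayes, Benjamini-Hochberg; R 4.3.3), with a row added for the log2 ratio of each of 13 pairs. The difference of the slope between the 3 slides was tested as the hours by slide interaction. Windows are means of log2 signals at 3, 4 and 6 h and at 60, 66 and 72 h, which are different time points and not replicates. The fit was tested on simulated data. Sequences were read from RefSeq promoter windows with Python 3.11.15 and pandas 2.3.3.

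The members, the gene lists and the tests were chosen with earlier results of these data known. All members are named. Signals of each array are given for the 3 steepest called rises and the 3 steepest called falls of PRC2, of PRC1 and of the KMT2 and KDM genes, and at most 2 of each are named from other lists. Other values by time, such as those of KDM5B, JARID2, BMI1 and CBX8, were chosen after they were seen. The alternatives were the array median or 7 of 10 spike-in levels as the scaling, the deposited table, normexp (offset 50) with quantile normalization, a filter on all 19 arrays or none, log2 hours, the slide as a block, 3 to 54 h alone, the mean of all probes of a gene, and each array left out in turn.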

Additional observations from a re-analysis of the deposited data

Results flagged for a closer look

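The slope on hours differed between the 3 slides for 8 genes by a test of the difference itself (limma, hours by slide interaction, adjusted over all probes tested), beside 25.5% of all genes. For BMI1 the adjusted p was 0.00806, and its slopes were -0.19, 0.0112 and 0.0056 per hour within the slides in order of time. For PCGF1 it was 0.00776, with slopes of -0.0618, -0.0076 and 0.0326 per hour. For PCGF6 it was 0.00301, with 0.0297, 0.0093 and -0.0361 per hour. For CBX2 it was 0.0335, with -0.0503, 0.0039 and -0.0123 per hour, and for CBX7 it was 0.0199, with -0.0296, 0.0300 and -0.0031 per hour. For PHC2 it was 0.00392, with -0.0450, 0.0144 and -0.0274 per hour. Of the KMT2 subunits, WDR5 had 0.0176, with 0.0189, -0.0018 and -0.0269 per hour, and ASH2L had 0.0105, with -0.0175, 0.0024 and -0.0234 per hour. Slides hold consecutive spans of time, so slide and time span cannot be told apart here.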

How the results depend on the processing

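The 4 rising and 16 falling genes became 1 and 23 under the array median, 0 and 20 under the spike-in RNA, 6 and 12 with normexp and quantile normalization, 3 and 17 with the deposited table, and 0 and 2 with the slide as a block, where 2 pairs were called in place of 5. They became 5 and 11 from 3 to 54 h and 6 and 11 with the mean of all probes of a gene. Of all genes tested, 10.6% rose and 44.5% fell under the array median, and 3.59% and 44.5% under the spike-in RNA. These shares were 22.3% and 26.1% with normexp and quantile normalization and 20.1% and 31.8% with the deposited table. With the slide as a block they were 4.12% and 5.97%. They were 23.6% and 27.5% from 3 to 54 h, and 26.1% and 28.5% with the mean of all probes. With single arrays left out, 3 to 5 members rose, 15 to 17 fell and 5 to 7 pairs were called. With the spike-in RNA the slope differed between slides for 14 members in place of 8. The share of all genes under that scaling is not given here, so this count does not set the members apart. The sign of the slope changed for KMT2B with the array median (-0.0052 per hour), for PHF1 with the spike-in RNA (-0.0027 per hour), for RBBP4 and PHC1 with normexp and quantile normalization (0.000113 and 0.000138 per hour), for PCGF6 from 3 to 54 h (0.0062 per hour), and for KMT2A and KDM5C with the mean of all probes (0.0053 and 0.000266 per hour). The cause was not tested. No paired analysis was possible because no group had more than 1 array. Signals not well above background, as on 5 arrays of CBX8, limit the dim genes.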

Other observations

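PCGF5, a subunit of a variant PRC1, had a signal of 135 at 42 h and between 4.78 and 35.5 on the other 18 arrays, and it was well above background at 4, 42 and 60 h. KDM5A was well above background at 42, 48 and 54 h, with 31.5, 47.0 and 20.6. EPOP, an accessory subunit of PRC2 outside the 41 genes, went from 2290 at 3 h to 393 at 16 h and had no called slope over the whole course, while its slope within the first slide was -0.27 per hour.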
